A study of Mus with 3 samples.

Results

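The chemokine genes Ccl3, Ccl4, Ccl5, Xcl1 and Ccl1 were followed through the cells of mouse MC38 tumors in single-cell RNA sequencing with matched T cell receptor (TCR) sequencing. The members were given by name, and all 5 were found among the 32285 genes of the matrix, each with a single row. The cells came from MC38 tumors, a mouse colon carcinoma line grown under the skin, taken on day 16 from 3 genotypes. WT mice were the controls, and the sources used here do not say whether these were C57BL/6 or dLck-Cre mice. RARα-KO mice carried Rara L/L alleles, which encode retinoic acid receptor α, and a Cre driven by the distal promoter of Lck, so that deletion was directed to T cells. RARα-TG mice carried Rara under the CD2 promoter, which is also active in T cells. The tumor suspension of each genotype was stained with its own hashtag antibody, CD45.2+ CD3+ T cells were sorted from it, a smaller number of unsorted cells of that suspension was added, and the genotypes were pooled into 1 library. There was therefore 1 sample per genotype, the sources used here give no number of mice for it, their age was given only for most experiments of the study as a range of age-matched mice, and no difference below has a replicate or a test. A further field of the labels names spleen and activated CD8 T cells, which goes against their own tumor protocol.

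Chemokines are small secreted proteins that draw leukocytes along their gradient through receptors coupled to G proteins. Ccl3 and Ccl4, also called MIP-1α and MIP-1β, are made within hours by activated T cells, NK cells and myeloid cells, and Ccl5 (RANTES) is a late and lasting product of effector and memory CD8 T cells. Ccl3 and Ccl5 bind Ccr1. Xcl1 (lymphotactin) is made by CD8 T cells and NK cells and binds Xcr1, a receptor of cross-presenting dendritic cells, and Ccl1 binds Ccr8, which is carried by tumor regulatory T cells.

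The genes lie in 2 places of the mouse genome (GRCm38). Ccl5 (chr11:83525778-83530518), Ccl3 (chr11:83647843-83649378) and Ccl4 (chr11:83648624-83664683) are neighbours in the CC chemokine cluster of chromosome 11, Ccl1 (chr11:82176666-82179812) lies in the same cluster further upstream, and Xcl1 (chr1:164931644-164935522) is on chromosome 1. The RefSeq intervals of Ccl3 and Ccl4 overlap, and whether this affected the counts of either gene was not tested. The identifiers in the matrix were ENSMUSG00000000982 for Ccl3, ENSMUSG00000018930 for Ccl4, ENSMUSG00000035042 for Ccl5, ENSMUSG00000026573 for Xcl1 and ENSMUSG00000020702 for Ccl1.

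The 5586 cells had a median of 4822 UMIs (unique molecular identifiers, 1 per captured transcript) and 1829 genes. Hashtags assigned 1928 cells to WT, 2107 to RARα-KO and 895 to RARα-TG. Cytotoxic T lymphocytes (CTLs), defined as T cells with a Cd8a UMI and no Cd4 UMI, numbered 843 for WT, 1178 for RARα-KO and 108 for RARα-TG, with median depths of 5664, 5605.5 and 4418 UMIs. The RARα-TG values of CTLs therefore rest on the fewest cells and UMIs. A further 388 WT, 290 RARα-KO and 405 RARα-TG T cells met neither this gate nor that of the CD4 T cells below. They were shallower, with median depths of 2938.5, 3017.5 and 2864 UMIs, and held 12.2%, 7.88% and 27.9% of all Ccl5 UMIs of their genotype. Rara itself stood at 87.3 CPM (UMIs of a gene per 1000000 UMIs of the summed cells) in WT T cells, 80.0 CPM in RARα-KO T cells and 253 CPM in RARα-TG T cells, and RARα-KO cells still make a transcript without the deleted exon, so this level does not check the deletion. All intervals below are 95% intervals of counting error only and leave out the variation between mice and tumors. A cell is called positive with 1 or more UMIs of a gene. Where no cell of a group was positive, the limit given is a floor of 3 counts over the number of cells, which bounds the cells with a UMI and not the cells that express the gene. In a sum over cells, fewer cells of a type and less RNA per cell cannot be told apart, which is why shares and levels per positive cell are given side by side.

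The label of the genes as T cell chemokines held for Ccl5 and Ccl1 and depended on the genotype for the other members. T cells held 95.1% of all Ccl5 UMIs in WT, against 97.4% in RARα-KO, with 95.8% in RARα-TG, and 99.03% or more of the Ccl1 UMIs in each genotype. For Ccl3, T cells held 44.9% for WT, 76.2% for RARα-KO and 12.6% for RARα-TG. For Ccl4, these shares were 50.6%, 77.6% and 12.5%. The sort for CD3+ cells set how many T cells entered each pool, so these shares describe the pool and not the tumor. Macrophages held 27.6% of the WT Ccl3 UMIs and neutrophils 19.5%, although only 10 WT cells were neutrophils. For Xcl1, T cells held 97.1% in WT, against 99.7% in RARα-KO, with 44.6% in RARα-TG, where 9 NK cells held 55.4%.

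**Figure D1:**
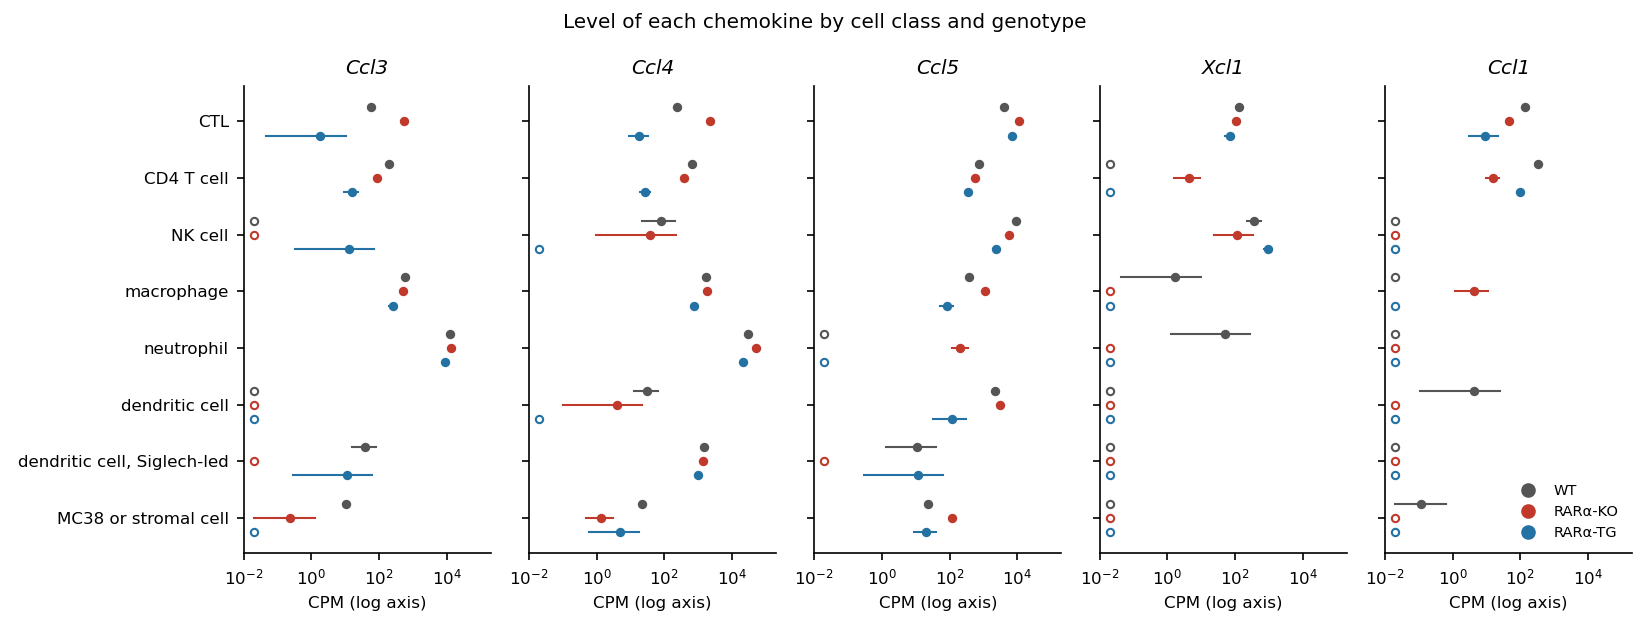
Level of each chemokine in each cell class, as CPM on a log axis, with 1 point per genotype and a line for the Poisson 95% interval. Open circles at the left edge mark classes without a UMI. Ccl3 and Ccl4 reached their highest values in neutrophils (30407 CPM of Ccl4 in WT), and Xcl1 reached its highest in NK cells (919 CPM in RARα-TG).

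Ccl3 and Ccl4 were the members with the widest range of producers. Neutrophils, which were few and shallow (10, 37 and 10 cells with median depths of 1691.5, 2059 and 1551.5 UMIs), had 12405 CPM of Ccl3 for WT, 13389.5 CPM for RARα-KO and 9080.4 CPM for RARα-TG. Ccl4 stood at 30407 CPM in WT, against 50722 CPM in RARα-KO, with 20648 CPM in RARα-TG neutrophils. The order RARα-KO, WT, RARα-TG thus held for both genes in these cells, and the WT and RARα-KO intervals overlapped for Ccl3 (10903 to 14056 CPM and 12584 to 14233 CPM) but not for Ccl4 (28028 to 32934 CPM and 49142 to 52339 CPM). Of these neutrophils, 7 of 10, 32 of 37 and 9 of 10 were positive for Ccl3.

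Macrophages had 603 CPM of Ccl3 for WT, 519 CPM for RARα-KO and 252 CPM for RARα-TG. Their Ccl4 stood at 1669.8 CPM, 1808 CPM and 744 CPM. The log2 ratios of RARα-KO over WT macrophages were -0.22 for Ccl3 (-0.42 to -0.01) and 0.11 for Ccl4. Both ratios were close to 0 when set beside those of CTLs below. A single WT macrophage held 96 of the 348 WT Ccl3 UMIs. Without the top cell of each genotype, Ccl3 was at 447 CPM in WT and 479 CPM in RARα-KO, so its direction turned. Ccl4 kept its direction, at 1271 and 1608 CPM. Ccl3 was positive in 25 of 78 WT and 59 of 127 RARα-KO macrophages. With each cell thinned to an equal depth, the Ccl3 ratio was 0.10 per cell, 0.67 from the share and -0.57 from the level. The RARα-TG value of Ccl4 came largely from a single cell, which held 162 of 183 UMIs, and without it the level was 90.2 CPM.

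The dendritic cells led by Siglech, a receptor of plasmacytoid dendritic cells, were a further Ccl4 source with almost no Ccl3. They had 1452 CPM of Ccl4 in WT (22 of 27 cells positive), against 1391 CPM in RARα-KO (7 of 9), with 982 CPM in RARα-TG (8 of 13). Ccl3 had 7 UMIs in these WT cells, none in RARα-KO and 1 in RARα-TG. In the other dendritic cells the picture was turned around toward Ccl5, with 2205 CPM in 21 WT cells and 3154 CPM in 26 RARα-KO cells (1132 and 2385 CPM without the cell with the most UMIs of each), while Ccl3 had no UMI in any genotype. So Ccl3 and Ccl4 did not go together in dendritic cells, and Ccl5 and Ccl4 marked separate dendritic clusters.

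The cells that cluster as MC38 or stromal cells served as the background. They carried Sparc (98.9% of cells) and Col3a1 (90.7%) but lacked the keratin Krt18 (0%) and nearly lacked Epcam (0.451%), so tumor and stromal cells could not be told apart. Among 283 such WT cells with a median of 28976 UMIs, 9.19% had a Ccl5 UMI, 1.06% a Ccl3 UMI, 1.06% a Ccl4 UMI, 0.353% a Ccl1 UMI and none an Xcl1 UMI, which allows a share of up to 1.06%. In 134 RARα-KO cells at 30441 UMIs, the shares were 11.9% for Ccl5, 4.48% for Ccl4 and 0.746% for Ccl3. A single WT cell held 90 of the 92 Ccl3 UMIs and a single cell 188 of the 196 Ccl4 UMIs of this class. Barcodes without cells had 2721 CPM of Ccl5, 555 CPM of Ccl4, 204 CPM of Ccl3, 48.1 CPM of Ccl1 and 37.0 CPM of Xcl1, so free RNA of all members was present.

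In CTLs, Ccl3 and Ccl4 stood highest in RARα-KO, and both the share of positive cells and the UMIs per positive cell were higher than in WT. Ccl3 was at 58.9 CPM for WT (52.7 to 65.6), 565 CPM for RARα-KO (549 to 581) and 1.85 CPM for RARα-TG, the last from 1 UMI. Ccl4 was at 232 CPM in WT (219 to 245), against 2205 CPM in RARα-KO (2173 to 2238), with 18.5 CPM in RARα-TG, from 10 UMIs. None of these intervals overlapped between genotypes, which leaves out all variation between mice.

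The share of Ccl3-positive CTLs was 8.78% for WT (6.96% to 10.9%), 17.5% for RARα-KO (15.4% to 19.8%) and 0.926% for RARα-TG (1 of 108 cells). A Ccl3-positive CTL held on average 4.46 UMIs in WT and 22.3 UMIs in RARα-KO. For Ccl4, 19.2% of WT CTLs, 36.8% of RARα-KO CTLs and 3.70% of RARα-TG CTLs were positive, with a mean of 8.02, 41.2 and 2.50 UMIs per positive cell. The RARα-TG shares had wide intervals, 0.0234% to 5.05% for Ccl3 and 1.02% to 9.21% for Ccl4, which overlapped those of the deeper MC38 or stromal cells. At an equal depth of 1000 UMIs, none of 106 RARα-TG CTLs was positive for Ccl3 and 1 for Ccl4, against 1 of 283 WT MC38 or stromal cells for each gene. A RARα-TG level of either gene above the background was thus not detectable at this depth. In CPM over all UMIs, Ccl4 of RARα-TG CTLs (18.5, 8.87 to 34.0) stood below the WT MC38 or stromal cells (22.5, mostly 1 cell) and above those of RARα-KO (1.37) and RARα-TG (5.04).

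The medians moved far less than the means. The median Ccl4-positive CTL had 2 UMIs in WT and 4 UMIs in RARα-KO, while the upper quartile went from 5 to 26 UMIs. CTLs with 30 or more Ccl4 UMIs made up 1.19% of WT CTLs (10 of 843, 0.570% to 2.17%) and 8.57% of RARα-KO CTLs (101 of 1178, 7.04% to 10.3%). For Ccl3, 1 of 843 WT CTLs and 26 of 1178 RARα-KO CTLs had 30 or more UMIs. The difference in level was thus carried by a minority of very high cells as well as by more positive cells. For Ccl4, 50% of the UMIs lay in 10 WT and 20 RARα-KO CTLs, and for Ccl3 in 7 and 7 CTLs. Counting intervals do not cover this concentration in few cells.

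With each cell thinned to 1000 UMIs, the difference could be split on the log2 scale. The RARα-KO over WT ratio of Ccl3 UMIs per cell was 3.13, of which 1.65 came from the share of positive cells and 1.49 from the UMIs per positive cell. For Ccl4 the ratio of 2.99 split into 1.39 and 1.601. At this depth, share and level per positive cell thus contributed about equally for both genes. At full depth, the mean UMIs per positive cell given above rose by a larger factor than the shares did. The split therefore depends on the depth.

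**Figure D2:**
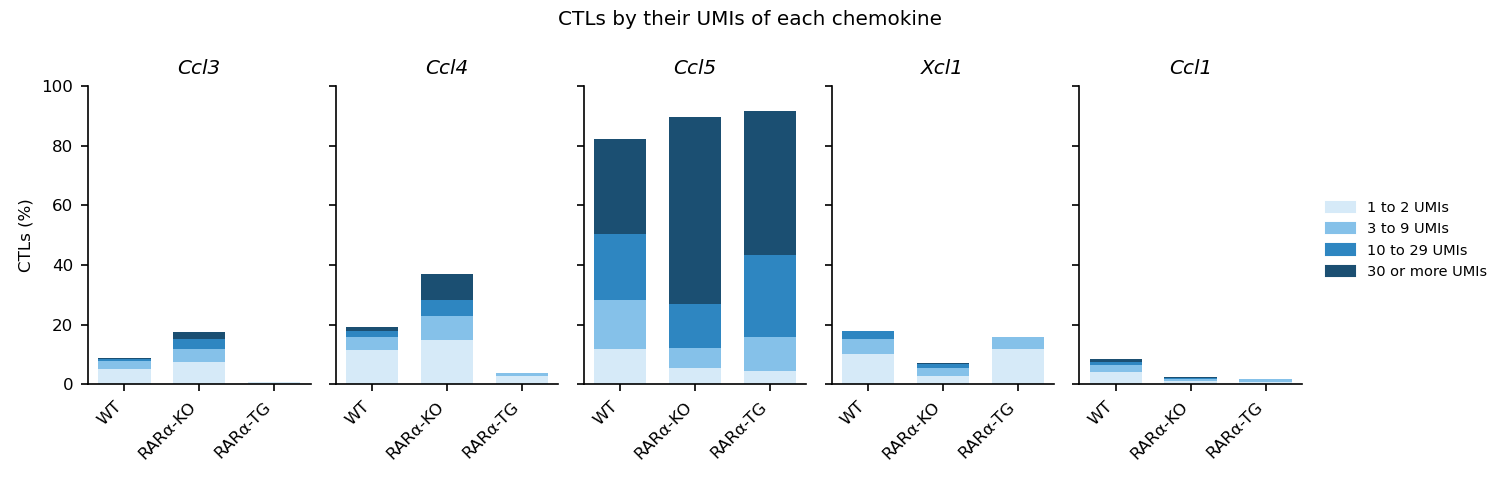
Share of CTLs (%, stacked bars) with 1 to 2, 3 to 9, 10 to 29 and 30 or more UMIs of each chemokine, by genotype. The darkest part, cells with 30 or more UMIs, reached 8.57% for Ccl4 and 62.5% for Ccl5 in RARα-KO, against 1.19% and 31.7% in WT.

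Ccl5 was the member that nearly every CTL carried, and its difference between RARα-KO and WT lay mainly in the level per cell. It stood at 4049 CPM in WT (3997 to 4102), against 11489.6 CPM in RARα-KO, with 7139 CPM in RARα-TG (6915 to 7367). The share of positive CTLs was 82.2% (79.5% to 84.7%), 89.5% (87.6% to 91.2%) and 91.7% (84.8% to 96.1%), and the intervals of the last pair overlapped. Positive CTLs held a median of 19 UMIs in WT, 63.5 UMIs in RARα-KO and 31 UMIs in RARα-TG. CTLs with 30 or more UMIs made up 31.7%, 62.5% and 48.1%.

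Thinned to 1000 UMIs, Ccl5 was positive in 64.3% of WT CTLs, 82.2% of RARα-KO CTLs and 81.1% of RARα-TG CTLs, against 1.41% of the WT MC38 or stromal cells. The RARα-KO over WT ratio of 1.35 per cell split into 0.35 from the share and 0.997 from the level per positive cell. For RARα-TG over WT, 0.59 split into 0.34 and 0.26. The UMIs of Ccl5 were spread over many cells, since 50% of them lay in 106 WT and 198 RARα-KO CTLs, in contrast to Ccl3 and Ccl4.

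Xcl1 had a similar level in WT and RARα-KO CTLs, made up in different ways. It was at 129 CPM for WT (120 to 139), 107 CPM for RARα-KO (100 to 115) and 70.3 CPM for RARα-TG (49.7 to 96.5). Positive CTLs made up 18.0% in WT (15.5% to 20.8%), against 7.13% in RARα-KO (5.73% to 8.75%), with 15.7% in RARα-TG (9.45% to 24.0%). A positive CTL held a mean of 4.76 UMIs in WT, 10.4 UMIs in RARα-KO and 2.24 UMIs in RARα-TG. Fewer RARα-KO CTLs thus carried Xcl1, and those that did carried more. After thinning, the share term for RARα-KO over WT was -0.51 and the level term 0.61, so the ratio per cell was 0.10, above 0, whereas the ratio of CPM was -0.26. The direction of the total for Xcl1 depended on this choice, and for RARα-TG over WT it turned from -0.88 to 0.14 with T cells defined by a clonotype alone.

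Ccl1 was lower in both modified genotypes. It was at 140 CPM in WT CTLs (131 to 151), 45.8 CPM in RARα-KO (41.3 to 50.7) and 9.25 CPM in RARα-TG, from 5 UMIs (3.002 to 21.6). Positive cells made up 8.66% for WT (6.85% to 10.8%), 2.38% for RARα-KO (1.59% to 3.42%) and 1.85% for RARα-TG (2 of 108 cells). The UMIs per positive cell were similar in WT and RARα-KO, with means of 10.8 and 13.3 UMIs and a median of 3 UMIs in both. After thinning, the share term was -1.56 and the level term -0.07. The difference in Ccl1 lay in the share, the reverse of the pattern of Ccl5. A single RARα-KO CTL held 131 of the 372 UMIs, and without the cell with the most Ccl1 UMIs of each genotype the log2 ratio was -2.06 in place of -1.62. With each clonotype weighted equally the RARα-KO over WT ratio turned to 0.29, while among clonotypes of 10 or more CTLs the median Ccl1 level was 54.2 CPM in WT and 6.87 CPM in RARα-KO.

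Set against the other genes of CTLs, all members but Xcl1 lay near an end of the RARα-KO over WT order. For RARα-KO over WT, the log2 ratios were 3.26 for Ccl3 (3.10 to 3.43), 3.25 for Ccl4 (3.17 to 3.33), 1.505 for Ccl5 (1.48 to 1.53), -0.26 for Xcl1 (-0.41 to -0.12) and -1.62 for Ccl1 (-1.80 to -1.44). Ccl3 was the 7th highest, Ccl4 the 8th and Ccl5 the 34th of the 6567 genes that reached 0.1 UMIs per cell in either genotype, and Ccl1 was at place 6547. Past 2-fold, 3 of the 5 members were higher against 1.22% of all genes, and 1 was lower against 1.05%. The members and the gene lists below were chosen with earlier results of these data known. Their counts beside a background share are therefore descriptions only.

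For RARα-TG over WT, the log2 ratios were -4.99 for Ccl3 (-10.30 to -2.50, from 1 UMI), -3.65 for Ccl4 (-4.71 to -2.77), 0.82 for Ccl5 (0.77 to 0.87), -0.88 for Xcl1 (-1.39 to -0.41) and -3.92 for Ccl1 (-5.55 to -2.70). With the 1 UMI of Ccl3 set to the floor of 3 counts, its ratio was -3.41. Past 2-fold, 3 members were lower against 6.5% of all 6536 genes, and none was higher against 4.7%. Ccl5 was thus higher than in WT in both genotypes, and Ccl1 lower in both. The genotypes share the WT cells as reference, so the pair of ratios of a gene is not independent.

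**Figure D3:**
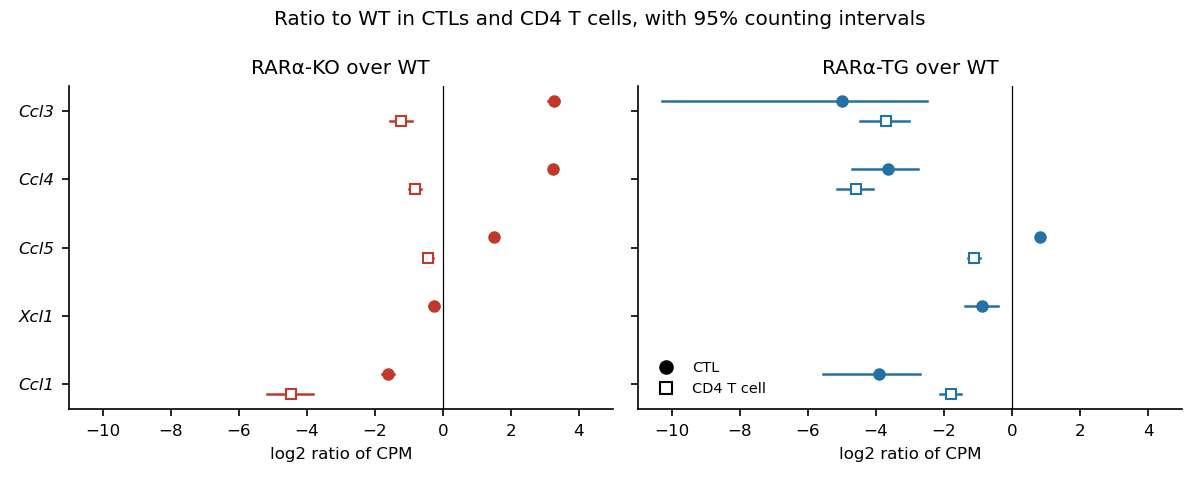
Log2 ratio of CPM to WT for each chemokine, RARα-KO on the left and RARα-TG on the right, in CTLs (filled circles) and CD4 T cells (open squares), with 95% counting intervals. Ccl3, Ccl4 and Ccl5 lay above 0 in RARα-KO CTLs (3.26, 3.25 and 1.505) and below 0 in RARα-KO CD4 T cells, and Xcl1 has no point in CD4 T cells.

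In CD4 T cells, with a Cd4 UMI and no Cd8a or Cd8b1 UMI, Ccl3, Ccl4 and Ccl5 had the opposite direction in RARα-KO. WT had 216 such cells, RARα-KO 244 and RARα-TG 262, with median depths of 3921, 4779.5 and 3977 UMIs. Ccl3 was at 205 CPM in WT, against 87.3 CPM in RARα-KO, with 15.7 CPM in RARα-TG. Ccl4 was at 657 CPM, 373 CPM and 27.3 CPM, and Ccl5 at 752 CPM, 558 CPM and 346 CPM. All 3 genes stood in the order WT, RARα-KO, RARα-TG in these sums.

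These sums rested on few cells, and the shares of positive cells were close between WT and RARα-KO. Ccl3 was positive in 10 WT, 11 RARα-KO and 5 RARα-TG cells, or 4.63%, 4.51% and 1.91%. Ccl4 was positive in 6.94%, 7.38% and 3.05%, and the WT interval overlapped the RARα-KO interval (3.94% to 11.2% and 4.43% to 11.4% for Ccl4). The share of Ccl5-positive cells was 31.9%, 31.1% and 32.4%. For Ccl3, 2 WT cells held 50% of the UMIs and 1 RARα-KO cell did.

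The log2 ratios in CD4 T cells for RARα-KO over WT were -1.23 for Ccl3 (-1.57 to -0.90), -0.82 for Ccl4 (-0.99 to -0.65), -0.43 for Ccl5 (-0.58 to -0.29) and -4.47 for Ccl1 (-5.18 to -3.83). Past 2-fold, 2 members were lower against 2.37% of 6157 genes and none was higher against 1.35%. For RARα-TG over WT they were -3.71 for Ccl3, -4.59 for Ccl4, -1.12 for Ccl5 and -1.79 for Ccl1, so 4 members were lower past 2-fold against 2.1% of 5999 genes and none higher against 2.07%. With each clonotype weighted equally, the RARα-KO ratios of Ccl3 and Ccl4 turned to 1.58 and 0.28. Without the cell with the most UMIs of each genotype, Ccl3, Ccl4 and Ccl5 stayed lower in RARα-KO, at 40.7, 152 and 487 CPM against 121, 402 and 601 CPM in WT.

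A split by Foxp3, the transcription factor of regulatory T cells, showed opposite orders for Ccl3 and Ccl4. Foxp3-negative means only that no Foxp3 UMI was found. In the T cell clusters led by Hbb-bs and by Jcad, 76.4% and 75.6% of cells had a Foxp3 UMI. The negative cells may therefore include regulatory T cells, also in RARα-TG, which made up 238 of the 242 cells of the Jcad-led cluster. In Foxp3-positive CD4 T cells, Ccl4 was at 520 CPM in 120 WT cells (464 to 581), 870.1 CPM in 79 RARα-KO cells (789 to 957) and 23.1 CPM in 150 RARα-TG cells. Ccl3 was at 15.01 CPM, 192 CPM and 8.17 CPM in the same cells. In Foxp3-negative cells, Ccl4 was at 843 CPM in 96 WT cells (760 to 934), 94.95 CPM in 165 RARα-KO cells (75.6 to 118) and 33.7 CPM in 112 RARα-TG cells. In these sums RARα-KO was the highest genotype among Foxp3-positive cells and WT the highest among Foxp3-negative ones, but single cells carried them. Among Foxp3-positive cells, 1 RARα-KO cell held most of the 425 Ccl4 UMIs and 1 WT cell 243 of 312. Without these cells the levels of Ccl4 were 255 CPM in RARα-KO and 116 CPM in WT, and without the RARα-KO cell alone RARα-KO was below the 520 CPM of WT. Among Foxp3-negative cells, 1 WT cell held 268 of 371 Ccl4 UMIs, and without the top cell of each genotype the levels were 237 CPM for WT and 56.5 CPM for RARα-KO. The positive cells were few, 10 and 12 for Ccl4 among Foxp3-positive WT and RARα-KO cells and 5 and 6 among the Foxp3-negative cells.

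All Ccl1 UMIs found in WT and RARα-KO CD4 T cells lay in Foxp3-negative cells. All 354 WT UMIs lay in 8 of 96 Foxp3-negative cells, and 0 of 120 Foxp3-positive cells had one, which allows a share of up to 2.50%. In RARα-KO all 21 UMIs lay in 4 of 165 Foxp3-negative cells. This is too few to tell these cells from the 79 Foxp3-positive ones, which had no Ccl1 UMI. In RARα-TG, 12 of 112 Foxp3-negative cells (10.7%, 5.66% to 18.0%) and 3 of 150 Foxp3-positive cells were positive. Over all CD4 T cells the positive share was 3.70% for WT, 1.64% for RARα-KO and 5.73% for RARα-TG. One WT cell held 300 of the 354 UMIs, and without the cell with the most UMIs of each genotype the RARα-TG over WT ratio turned from -1.79 to 0.54.

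Xcl1 was nearly absent from CD4 T cells in all genotypes. CD4 T cells had no UMI in 216 WT cells, which allows a share of up to 1.39%, and none in 262 RARα-TG cells, which allows up to 1.15%, while 2 of 244 RARα-KO cells held 6 UMIs. NK cells, of which there were only 12 in WT, against 5 in RARα-KO, with 9 in RARα-TG, were Xcl1-positive in 7, 2 and 7 cells.

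Within CTLs the members were spread over subsets in unlike ways. T cells were clustered without the member genes, and the subsets are named here by their leading gene. The subset led by Ifng, the gene of interferon γ, together with Mir155hg, Crtam and Nfkbid, held 99 WT CTLs (11.7%) and 197 RARα-KO CTLs (16.7%). In WT it had 314 CPM of Ccl3, 1368 CPM of Ccl4, 5771 CPM of Ccl5, 769.7 CPM of Xcl1 and 983 CPM of Ccl1. These are the highest WT levels of Ccl3, Ccl4, Xcl1 and Ccl1 among the CTL subsets with 20 or more cells, while the WT level of Ccl5 was higher in the Cd7-led subset (7768 CPM).

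In RARα-KO, the Ifng-led subset had 1910.4 CPM of Ccl3, 7332 CPM of Ccl4, 9349 CPM of Ccl5, 634 CPM of Xcl1 and 245 CPM of Ccl1. Within this subset the RARα-KO over WT log2 ratios were 2.61 for Ccl3, 2.42 for Ccl4, 0.70 for Ccl5, -0.28 for Xcl1 and -2.00 for Ccl1. Each member thus kept the direction it had over all CTLs. The share of Ccl3-positive CTLs was 32.3% in WT (23.3% to 42.5%) and 36.5% in RARα-KO (29.8% to 43.7%), with overlapping intervals, while the mean per positive cell was 5.09 and 30.1 UMIs. In these cells the Ccl3 difference lay in the level per positive cell rather than in the share. For Xcl1 the share went from 53.5% in WT (43.2% to 63.6%) to 30.5% in RARα-KO (24.1% to 37.4%).

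The Serpine2-led subset, with Zbtb32, Prf1 and Gzmk among its leading genes, was nearly a RARα-KO subset, with 477 of 1178 RARα-KO CTLs (40.5%) and 9 of 843 WT CTLs (1.07%). It had the highest Ccl5 of all CTL subsets, 18078 CPM with 97.1% positive cells and a mean of 127 UMIs per positive cell. Ccl4 was at 1485 CPM, Ccl3 at 309 CPM, Xcl1 at 34.1 CPM (7.42 CPM without 1 cell) and Ccl1 at 6.77 CPM (3.08 CPM without 1 cell). It held 40.5% of the RARα-KO CTLs and 21.9% of their Ccl3 UMIs. Without it the RARα-KO over WT log2 ratio of Ccl5 was 0.84 in place of 1.505, while Ccl3 and Ccl4 stood at 3.64 and 3.57.

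The Gzmf-led subset held 393 WT CTLs (46.6%) and 148 RARα-KO CTLs (12.6%). Granzymes C to G, which are typical of strongly stimulated CTLs, are among its leading genes. Only 23.6% of its cells had a Gzmd UMI. All members were lower here than in the Ifng-led subset of the same genotype, but the subset held 39.1% of the Ccl3 UMIs of WT CTLs. In WT, Ccl3 was at 43.1 CPM, Ccl4 at 124 CPM and Ccl5 at 3436 CPM, and in RARα-KO at 122 CPM, 684 CPM and 5100.2 CPM. Xcl1 had 51.5 CPM in WT and no UMI in 148 RARα-KO CTLs, and Ccl1 had 64.8 CPM in WT and 3 UMIs in RARα-KO. With the 0 UMIs set to a floor of 3 counts in the summed cells, the log2 ratio of Xcl1 was at most -4.48.

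In the Cd7-led subset, with Tcf7, a factor of memory-like T cells, and S1pr1 among its leading genes, all 3 genotypes could be set side by side. It held 188 WT, 159 RARα-KO and 68 RARα-TG CTLs, or 22.3%, 13.5% and 63.0% of the CTLs of each. Ccl5 was at 7768 CPM for WT, 13231 CPM for RARα-KO and 9904 CPM for RARα-TG, and positive in 92.0%, 91.2% and 97.1% of cells. Ccl4 was at 98.2 CPM, 1182 CPM and 6.57 CPM, the last from 2 UMIs. Ccl3 was at 17.9 CPM, 41.98 CPM and 3.28 CPM, from only 14, 27 and 1 UMIs in 8, 7 and 1 cells. Its positive share was 4.26% in WT and 4.40% in RARα-KO. Here Ccl4 showed a RARα-KO over WT log2 ratio of 3.59 (3.25 to 3.95) and Ccl3 of 1.23 (0.25 to 2.28), so that Ccl4 was far ahead of Ccl3, unlike in CTLs as a whole. The RARα-TG over WT ratio of Ccl5 was 0.35 within the subset against 0.82 over all CTLs.

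**Figure D4:**
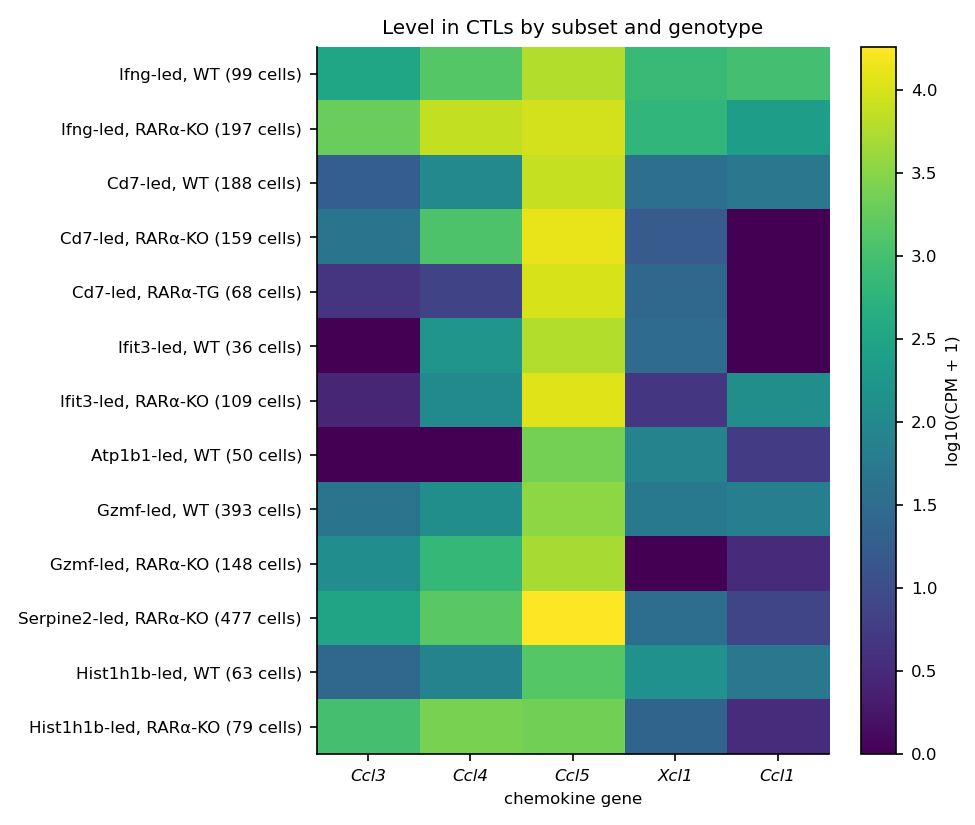
Level of each chemokine in the CTLs of each T cell subset and genotype with 20 or more CTLs, as log10(CPM + 1) by color; rows name the leading gene, the genotype and the number of CTLs. The Ifng-led rows are bright for all members, and the Serpine2-led RARα-KO row is the brightest for Ccl5 (18078 CPM).

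The proliferating CTLs, led by Hist1h1b, differed most between WT and RARα-KO for Ccl3 and Ccl4. Ccl3 was at 25.8 CPM in 63 WT cells and 997 CPM in 79 RARα-KO cells, a log2 ratio of 5.27 (4.67 to 5.95), and Ccl4 was at 78.5 CPM and 2485 CPM, a ratio of 4.98. A single RARα-KO cell held 659 of the 1222 Ccl3 UMIs and a single cell 1495 of the 3045 Ccl4 UMIs, and without the top cell of each genotype the RARα-KO levels were 469 CPM and 1291 CPM and the ratios 4.52 and 4.26. The share of Ccl3-positive cells was 14.3% in WT (6.75% to 25.4%) and 24.1% in RARα-KO (15.1% to 35.0%), with overlapping intervals. The Ifit3-led subset of interferon-response genes was an exception for Ccl4, with 167 CPM in 36 WT cells and 102 CPM in 109 RARα-KO cells (log2 ratio -0.70, -1.39 to 0.01, or 0.30 without the top cell of each genotype), and it was nearly free of Ccl3. The Atp1b1-led subset, with Tcf7 among its leading genes, had no Ccl3 or Ccl4 UMI in 50 WT CTLs but 2355 CPM of Ccl5. In the 5 subsets with 20 or more CTLs of both genotypes, Ccl5 was higher in RARα-KO in each of the 5, with log2 ratios from 0.57 to 0.94.

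Clonotype size is the number of T cells of a genotype that share a TCR. Large and single-cell clonotypes differed past 2-fold in CPM of Ccl4 and Ccl1 in WT and of Xcl1 in RARα-KO. CTLs of clonotypes with 1 cell (122 in WT, 94 in RARα-KO) were compared with those of clonotypes of 10 or more cells. In WT, Ccl4 was at 36.3 CPM in single cells and 266 CPM in the large clonotypes, a log2 ratio of 2.87 (2.29 to 3.52), which was the 7th highest of 6554 genes. Ccl1 was at 34.8 CPM and 172 CPM, a ratio of 2.31 (1.71 to 2.98). Ccl5 (0.19), Xcl1 (-0.14) and Ccl3 (0.40, -0.30 to 1.18) lay closer to 0. Past 2-fold, 2 members were higher against 4.38% of all genes and none was lower against 2.96%.

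For the level of Ccl4, the step in WT lay between single cells and small clonotypes. Ccl4 was at 251 CPM in WT clonotypes of 2 to 9 cells, 255 CPM at 10 to 49 cells and 307 CPM at 50 or more cells. The share of Ccl4-positive CTLs was 11.5% (6.42% to 18.5%), 19.0% (13.8% to 25.1%), 23.8% and 17.2% (10.98% to 25.1%) from single cells to the largest size. The interval of the single cells overlapped those of the next and the largest size. The level of Ccl1 instead rose with each size, at 34.8, 70.7, 111 and 406 CPM, the last in 2 clonotypes. Median depth was 4250.5 UMIs in the single cells and 6450 UMIs at 10 to 49 cells. After thinning, the ratio of large clonotypes over single cells for Ccl4 was 2.42 per cell, with 1.13 from the share and 1.29 from the level.

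In RARα-KO CTLs, Xcl1 was at 45.5 CPM in single cells and 127 CPM in clonotypes of 10 or more, a log2 ratio of 1.48 (0.89 to 2.14). Over the sizes of 2 to 9, 10 to 49 and 50 or more cells, it was at 165, 78.5 and 176 CPM, without a steady rise. The share of Xcl1-positive CTLs was 6.38% (2.38% to 13.4%) in single cells, then 4.59%, 6.25% and 10.4% (7.29% to 14.2%). The first and last intervals overlapped. A single CTL held 16 of the 24 UMIs of the single-cell clonotypes, and another 118 of the 211 UMIs at 2 to 9 cells. Ccl4 (0.38), Ccl5 (0.21), Ccl3 (-0.21) and Ccl1 (-0.35, -0.86 to 0.20) differed less. Past 2-fold, 1 member was higher against 2.42% of 6541 genes and none was lower against 2.9%. The single cells of RARα-KO already had 2046 CPM of Ccl4 and 724 CPM of Ccl3, but 1 cell held more than 50% of their 382 Ccl3 UMIs. Without the cell with the most UMIs in each group, the ratio for Ccl3 was 1.64 in place of -0.21, for Ccl1 at least 2.09 in place of -0.35 and for Xcl1 2.82 in place of 1.48. The share of Ccl3-positive CTLs went from 7.45% (3.05% to 14.7%) in single cells to 16.3%, 17.6% and 20.1% (15.9% to 24.9%) in the larger classes.

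The clonotypes of RARα-TG CTLs were small. Of these CTLs, 79 were in clonotypes of 1 cell and 13 in 7 clonotypes of 2 to 9 cells, and Ccl5 was positive in 89.9% and 100% of them. Ccl3 had no UMI in the 79 single cells, which allows a share of up to 3.80%. A RARα-TG comparison by size was not possible for the other members.

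Among large clonotypes the members varied widely. In 19 WT clonotypes with 10 or more CTLs, the share of Ccl4-positive CTLs ran from 0% to 50%, with a median of 25.9%, and in 21 RARα-KO clonotypes from 15.8% to 64.3%, with a median of 41.6%. For Ccl3 the medians were 9.09% and 18.2%, for Ccl5 83.3% and 93.3%, for Xcl1 16.7% and 7.14%, and for Ccl1 6.90% and 2.67%. The ranges of WT and RARα-KO overlapped for every member. The lowest Ccl5 level among the RARα-KO clonotypes (6670 CPM) was above the WT upper quartile (4390 CPM), whereas the WT clonotypes reached 10743 CPM. No clonotype was without Ccl5, and 6 of 21 RARα-KO clonotypes had no Xcl1-positive CTL, against 2 of 19 in WT.

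**Figure D5:**
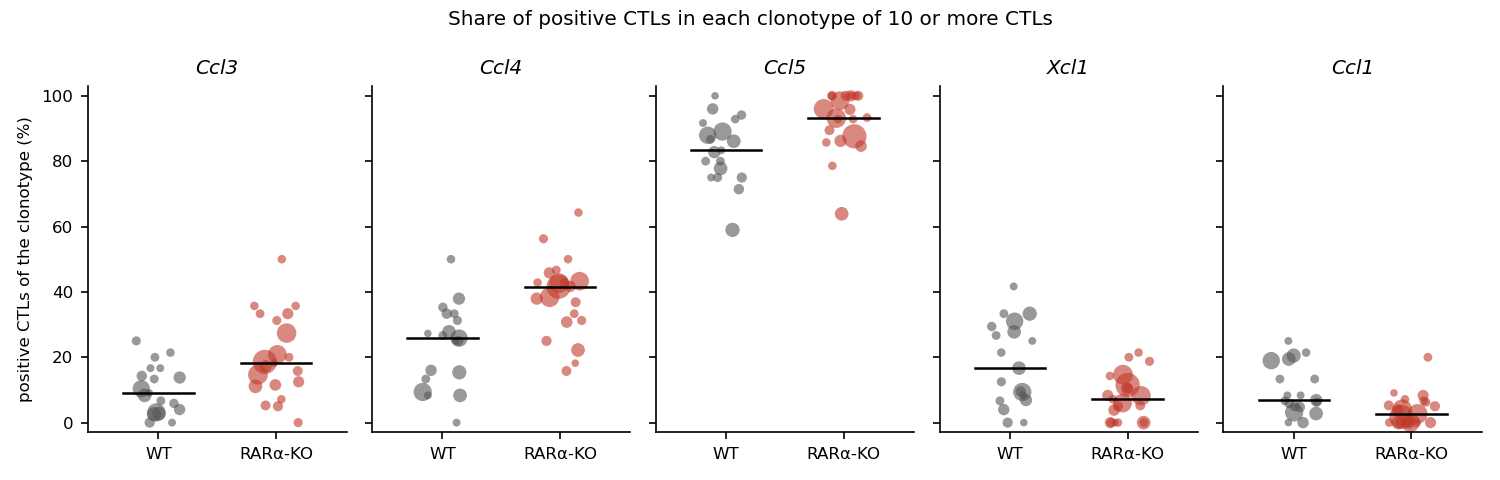
Share of positive CTLs (%) in each clonotype with 10 or more CTLs, 19 in WT and 21 in RARα-KO; the area of a point is proportional to the number of CTLs, and the line is the median. For Ccl4 the medians were 25.9% in WT and 41.6% in RARα-KO, and the clouds overlapped for every member.

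Ccl3 and Ccl4 were found in the same cells. With each CTL thinned to 1000 UMIs, 68.2% of Ccl3-positive WT CTLs (15 of 22) and 82.3% of Ccl3-positive RARα-KO CTLs (79 of 96) also had Ccl4, against 6.46% and 15.6% of the Ccl3-negative cells. Most Ccl4-positive CTLs had no Ccl3 UMI at this depth, since only 22.1% and 31.9% had one. Of the Xcl1-positive CTLs, 66.0% in RARα-KO (33 of 50) and 25.5% in WT (13 of 51) had Ccl4. Ccl4 itself was positive in 21.1% and 8.07% of CTLs, and both genes were found together in 2.81% and 1.54% of CTLs against products of the shares of 0.897% and 0.488%, so the excess over the product was alike. Of the Ccl1-positive CTLs, 33.3% in WT (12 of 36) and 41.2% in RARα-KO (7 of 17) had Xcl1. Ccl5 was found with Xcl1 about as often as the product of the shares gives, in 3.80% of WT CTLs against a product of 3.89%.

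Without thinning, 6 of 843 WT CTLs, 7 of 1178 RARα-KO CTLs and none of 108 RARα-TG CTLs had UMIs of all 5 members. CTLs with exactly 1 member made up 56.9%, 54.0% and 75%, and those without any 10.8%, 7.13% and 6.48%.

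Over 16 sums of UMIs by cell class and genotype with 20 or more cells each, the gene whose log2(CPM + 10) went most closely with Ccl3 was Ccl4 (Pearson r = 0.95), followed by Tmem38b (0.91) and Tnf (0.89), among 11847 genes. For Ccl4 they were Ccl3, Rhbdf2 (0.89) and Tnf (0.86). For Ccl5 they were Dusp2 (0.93), Klrk1 (0.88) and Glipr2 (0.85), for Xcl1 Lcn4 (0.97), Klre1 (0.97) and Crtam (0.95), and for Ccl1 Lta (0.91), Atg16l2 (0.90) and Slc17a6 (0.90). Between Ccl3 or Ccl4 and the other members, r was between 0.01 and 0.07. These are descriptions over sums that share 1 library and differ in depth. Ccl5 and Xcl1 had r = 0.67, and Ccl1 had 0.43 with Ccl5 and 0.42 with Xcl1.

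Ccr8, the receptor of Ccl1, was at 128 CPM for WT, 38.2 CPM for RARα-KO and 37.0 CPM for RARα-TG CTLs, with 35.7%, 13.2% and 12.0% positive cells. Its log2 ratios were -1.74 and -1.79. In CTLs, Ccr8 thus had the same direction as its ligand Ccl1 in both genotypes.

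Foxp3-positive CD4 T cells had 389 CPM of Ccr8 in WT, against 313 CPM in RARα-KO, with 355 CPM in RARα-TG, with 58.3%, 54.4% and 54.7% positive cells. CD4 T cells without a Foxp3 UMI, which may include regulatory T cells, had 289 CPM, 207 CPM and 429 CPM. Ccr1 was higher in myeloid cells than in T cells, with 369 CPM in WT and 393 CPM in RARα-KO macrophages and 1171 CPM in RARα-KO neutrophils. In RARα-TG, Foxp3-positive CD4 T cells had 108 CPM of Ccr1 against 30.02 CPM in WT. Xcr1, the receptor of Xcl1, had 9 UMIs in 21 WT and 3 UMIs in 26 RARα-KO dendritic cells and none in the Siglech-led cells, which is too few for a comparison. Ackr2, a scavenger of CC chemokines, had no UMI in any cell.

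Among the activation genes of T cells listed beside the members, 4 of 13 measured genes were higher past 2-fold in RARα-KO CTLs and none was lower, against 1.22% higher and 1.05% lower of all genes, with a median log2 ratio of 0.66 against 0.02. The higher ones were Egr2 (2.32), Tnfrsf9 (1.75), Egr1 (1.59) and Irf4 (1.03). At any size of difference, 9 of the 13 were higher and 4 lower, among the latter Irf8 (-0.78) and Rel (-0.38). A difference in TCR signals was not tested. In RARα-TG CTLs none of 12 was higher past 2-fold and 5 were lower, against 6.5% of all genes, Irf8 (-2.68), Myc (-1.35), Crtam (-1.28), Rel (-1.22) and Irf4 (-1.05), of which Crtam and Myc rest on 5 and 4 UMIs. Of the T cell cytokines, 3 of 7 were higher past 2-fold in RARα-KO CTLs, Ifng (1.76), Tnfsf14 (1.27) and Tnf (1.04), and 2 were lower, Csf2 (-3.48) and Tnfsf11 (-1.12). In RARα-TG CTLs, 5 of 6 were lower past 2-fold against 6.5% of all genes, with Ifng at -2.07 from 15 UMIs, Tnf at -3.33 from 2 UMIs (-6.38 to -1.46), and Csf2 and Tnfsf11 without a UMI, at most -2.07 and -3.31. Of 24 other chemokine ligands only Cxcl10 passed the filter in CTLs, at -0.42 and -0.22.

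The members stood beside other chemokines in the non-T cells, of which those named here were chosen after their values were seen. Over all genotypes, MC38 or stromal cells had 1234 CPM of Ccl2 and 1252 CPM of Cxcl1, macrophages had 8699.9 CPM of Cxcl2 against 1612 CPM of Ccl4 and 509 CPM of Ccl3, and neutrophils had 70087 CPM of Cxcl2 against 42624 CPM of Ccl4. In macrophages, Ccl5 was at 374.5 CPM for WT, 1150 CPM for RARα-KO and 85.3 CPM for RARα-TG. The share of Ccl5-positive macrophages did not follow this order, at 34.6% in WT (24.2% to 46.2%), against 24.4% in RARα-KO (17.2% to 32.8%), with 11.4% in RARα-TG (4 of 35). In WT macrophages 3 cells and in RARα-KO macrophages 4 cells held 50% of the Ccl5 UMIs. Whether droplets with a T cell contributed to these few cells was not tested.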

How the data were processed

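Cells of 3 hashtagged samples, 1 per genotype, were sequenced as 1 pooled 5′ single-cell library with matched TCR sequencing. The authors deposited UMI counts per gene and hashtag for 730308 barcodes, without normalization, and a table of TCR contigs. The submitters' processing notes name Cell Ranger 6.1.0, while the matrix header names another major version, and the genome build is mm10. The authors' cell filters are not given in the sources used here.

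From these counts, cells were called in a step by UMI rank (2433 cells) and a step against barcodes without cells (3153 of 3167 candidates with 500 or more UMIs, false discovery rate 0.01). The 4775 barcodes with a TCR contig that the authors had called as cells were all among the 5586 cells. Hashtags were assigned with Seurat 5.3.0 (HTODemux, quantile 0.99) in R 4.3.3, which left out 426 doublets and 230 negatives. No other doublet caller was run, so doublets within a genotype remain. Cells were clustered in scanpy 1.11.5 (Python 3.11.15) without the member genes, with 2000 variable genes, 30 principal components and Leiden resolution 1. T cells were the clusters in which more than 50% of cells had a clonotype, less an NK-like cluster of 26 cells and a B-like cluster of 8 cells.

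CPM is the sum of UMIs of a gene per 1000000 UMIs of the summed cells. Intervals are exact 95% intervals, Poisson for CPM, Clopper-Pearson for shares and conditional binomial for ratios, and cover counting error only. Limits for a count of 0 use a floor of 3 counts, not the Clopper-Pearson bound. With 1 sample per genotype no test was run. On simulated data, 95.5% of the ratio intervals held the simulated ratio for RARα-KO over WT CTLs (6566 intervals). This share says nothing of the spread between cells, mice or tumors, which the intervals leave out. Thinning drew 1000 UMIs per cell and left out shallower cells (WT 73, RARα-KO 56, RARα-TG 31). Genes entered a background share with 0.1 or more UMIs per cell in either group. The 5 members are named throughout. Other genes are named where they are receptors, list genes past 2-fold in CTLs, or the 3 genes with the highest correlation. Some genes that this rule would name are not reported here. The members and lists were chosen with earlier results of these data known. Gene positions are from RefSeq (GRCm38.p6). Alternatives changed the depth, cell calls, gates, hashtag quantile, clustering, gene filter and the weight of clonotypes.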

Additional observations from a re-analysis of the deposited data

Results flagged for a closer look

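For 3 members, the RARα-KO over WT log2 ratio of CPM pointed in opposite directions in CTLs and CD4 T cells. For Ccl3 it was 3.26 in CTLs (3.10 to 3.43) and -1.23 in CD4 T cells (-1.57 to -0.90). For Ccl4 it was 3.25 (3.17 to 3.33) and -0.82 (-0.99 to -0.65). For Ccl5 it was 1.505 (1.48 to 1.53) and -0.43 (-0.58 to -0.29). For RARα-TG over WT, Ccl5 was at 0.82 in CTLs (0.77 to 0.87) and -1.12 in CD4 T cells (-1.29 to -0.95). With 1 sample per genotype, these differences between the cell types were not tested, and the intervals cover counting error only. In CD4 T cells, 1 RARα-KO cell held 59.6% of the 508 Ccl4 UMIs and 1 WT cell held 39.2% of 683.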

How the results depend on the processing

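All values here are log2 ratios of CPM unless stated, and the cause of each shift was not tested. Of the CTL genotype ratios and member counts, 197 values under an alternative stayed near the main value, 67 moved by more than counting error and 6 turned. Of the other values, 335 stayed, 133 moved and 11 turned. No paired analysis was possible because each genotype had 1 sample, and for the same reason no replicate could be left out.

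For RARα-KO over WT in CTLs, thinning to 1000 UMIs gave 2.99 for Ccl4, 1.35 for Ccl5 and 0.10 for Xcl1, and thinning to 2000 UMIs gave 2.91 for Ccl3, 2.89 for Ccl4, 1.36 for Ccl5 and 0.034 for Xcl1. Cells of the first calling step gave 3.60, 3.51, 1.77, -0.51 and -2.30 for Ccl3, Ccl4, Ccl5, Xcl1 and Ccl1. T cells by clonotype alone gave 3.35 for Ccl4, 1.55 for Ccl5 and -0.023 for Xcl1. Equal weight per clonotype gave 3.55 for Ccl4, 1.32 for Ccl5 and 0.29 for Ccl1. Without the largest clonotype, Ccl3 was at 2.94, Ccl4 at 2.89, Ccl5 at 1.57 and Xcl1 at -0.51. Without the Gzmf-led subset the values were 3.08, 2.81, 1.42, -0.77 and -2.07 in the same order of genes. Without the 5% of cells with the most UMIs, Ccl3 was at 3.07, Ccl4 at 3.16 and Ccl5 at 1.55. Ccl5 was at 1.46 without mitochondrial, ribosomal and receptor genes and at 1.54 without cells with macrophage marker UMIs.

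For RARα-TG over WT in CTLs, thinning to 1000 UMIs left Ccl3 without a UMI, a bound of at most -0.59, and gave 0.59 for Ccl5 and -1.76 for Xcl1, and thinning to 2000 UMIs gave 0.64 for Ccl5. The first calling step gave at most -2.45 for Ccl3, again without a UMI, -4.92 for Ccl4, 0.75 for Ccl5 and -0.22 for Xcl1. T cells by clonotype alone gave -5.24 for Ccl4, 0.75 for Ccl5, 0.14 for Xcl1 and -5.95 for Ccl1. Equal weight per clonotype gave 0.72 for Ccl5 and -5.96 for Ccl1. Without the Gzmf-led subset, Ccl5 was at 0.63, Xcl1 at -1.67 and Ccl1 at -6.90. Ccl5 was at 0.56 with a Cd8b1 gate and at 0.89 without the 5% of cells with the most UMIs.

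A further 3 alternatives were chosen after seeing the data. Without the Ifng-led subset, RARα-KO over WT was 3.57 for Ccl4, 1.61 for Ccl5, -1.53 for Xcl1 and -2.01 for Ccl1, and RARα-TG over WT was 0.16 for Xcl1 and -2.54 for Ccl1. Without the Serpine2-led subset, RARα-KO over WT was 3.64, 3.57, 0.84, 0.27 and -0.98 for Ccl3, Ccl4, Ccl5, Xcl1 and Ccl1. Without the cell with the most UMIs of the gene in each group, RARα-KO over WT was 3.45 for Ccl3 and -2.06 for Ccl1, and RARα-TG over WT was -5.23 for Ccl4 and -6.04 for Ccl1.

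In CD4 T cells, equal weight per clonotype turned RARα-KO over WT to 1.58 for Ccl3 and 0.28 for Ccl4, so that 1 member was higher and 1 lower past 2-fold in place of 0 and 2. Without the top cell, RARα-TG over WT was 0.54 for Ccl1 and 2 members were lower in place of 4. For clonotype size, Ccl5 in WT turned to -0.32 with equal weight. In RARα-KO, Ccl3 turned to 0.31 and 0.0595 when thinned to 1000 and 2000 UMIs, 0.0948 with equal weight, 1.62 without the Ifng-led subset, 1.64 without the top cell and 0.0012 without the Serpine2-led subset, and Ccl4 turned to -0.042 without the largest clonotype. The members higher past 2-fold in RARα-KO numbered 2 with the first calling step and 3 without the Ifng-led subset or without the top cell, in place of 1, and 1 was lower when thinned to 2000 UMIs, in place of 0.

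Depth limits the RARα-TG CTLs most, where Ccl3, Ccl4 and Ccl1 rest on 1, 10 and 5 UMIs. With 1 library and 1 hashtag per genotype, the spread over mice and over libraries is unknown.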
